A study of Mus musculus with 3 samples.

Results

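The D- and E-type cyclins, the inhibitors of their kinases and cyclin G2 were followed at the mRNA level in 3 cell populations from C57BL/6 mice. The genes were Ccnd1, Ccnd2, Ccnd3, Ccne1, Ccne2, Cdkn1a, Cdkn1b, Cdkn2c, Cdkn2d and Ccng2, chosen by name, and all probe sets annotated to exactly 1 of these symbols were taken. They were 10 of 18193 genes and had 24 probe sets, a probe set being a group of short oligonucleotides on the array that reports 1 transcript region. The populations were B6N-22 embryonic stem (ES) cells, B220 B cells from spleen and CD4 T cells from spleen, with 1 array each. Per the labels, the ES cells grew on mouse embryonic fibroblasts blocked with mitomycin C, in medium with serum and leukemia inhibitory factor (LIF). Both lymphocyte populations were taken from mice of 6 to 8 weeks by magnetic beads to a stated purity above 98%, and no treatment of cells or animals is given. Whether fibroblasts were removed from the ES cells before lysis is not stated in the sources used here.

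Progression through the G1 phase of the cell cycle is driven by cyclin-dependent kinases (CDKs). D-type cyclins, made in answer to growth signals, bind CDK4 and CDK6, and E-type cyclins bind CDK2, and together these kinases phosphorylate the retinoblastoma (pocket) proteins and free E2F factors, which switch on genes of DNA replication. Inhibitors of the INK4 family, such as the products of Cdkn2c (p18) and Cdkn2d (p19), bind CDK4 and CDK6, while those of the CIP/KIP family, such as the products of Cdkn1a (p21) and Cdkn1b (p27), act on cyclin-kinase complexes more broadly. ES cells are known for a short G1 phase, and most lymphocytes of the resting spleen are known to be out of the cycle until they meet antigen.

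The values were probe set signals on a linear scale. A signal of 95.0, the 50th percentile of all values of the 3 arrays, was used as the detection level, and lower signals were set to it before taking the log2, so that a fold against such a signal can only be a minimum, marked "at least". Each gene was represented by its brightest probe set, was measured in a comparison if either array exceeded the detection level, and it was called different at 4-fold or more, which is 2 on the log2 scale. Comparisons were made between arrays, within a probe set, and never between genes. No replicate of any population was at hand, so differences are described without a test, and the number of arrays limits the precision. As the available measure of error, the brightest and second brightest probe sets of a gene disagreed with a robust SD of 0.80 on the log2 scale for T cells against ES cells, 0.75 for B cells against ES cells and 0.45 for T cells against B cells. This error stems from probes and says nothing of how cultures or animals vary.

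Identity markers matched the labels. All 8 ES cell markers exceeded the detection level in ES cells, with a median signal of 8887, and 0 were in either lymphocyte array. All 7 B cell markers exceeded it in B cells and all 8 T cell markers in T cells, while 6 of the 7 and 6 of the 8 also did so in the other lymphocyte array, with summed signals of 4393 against 93543 and of 1119 against 71185. Other cells were also seen. All 16 fibroblast markers exceeded the detection level in ES cells. Their summed signal was 103466 there, against 8108 in B cells and 22497 in T cells. Most of the T cell sum came from Vim at 8743, Thy1 at 7185 and S100a4 at 5938. Thy1 was also on the list of T cell markers. Most of the B cell sum came from Vim at 7138. Of the 16 fibroblast markers, only 5 exceeded the detection level for the B cell array and 4 for the T cell array. Of 13 macrophage markers, 13 were above it in B cells and 12 in T cells, with summed signals of 28382 and 68332 and 4424 in ES cells. The summed signals in B cells and T cells were 7020 and 13963 for 7 neutrophil markers, 1019.6 and 2570.0 for 6 dendritic cell markers and 3168 and 5664 for 8 markers of NK and cytotoxic cells. They were 38485.5 and 19589 for 5 plasma cell markers, which summed to 8408 in ES cells. For 5 platelet markers they were 1551.6 and 895.2, and for 4 erythroid markers 332.0 and 348.0. Of all measured genes, 51.5% of those called between T cells and ES cells were higher in T cells and 48.8% of those called between B cells and ES cells were higher in B cells, and scaling the arrays to a common 75th percentile turned these shares to 38.7% and 37.5%.

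Against ES cells, the lymphocytes had less Ccne1 and Cdkn1a mRNA and more Cdkn1b, Cdkn2c and Cdkn2d mRNA. By their brightest probe sets, Ccnd1 and Ccnd3 were highest in ES cells and lowest in B cells and Ccnd2 was highest in T cells, although the direction of Ccnd3 against ES cells depended on the probe set. In T cells, 4 of the 10 genes were at least 4-fold higher than in ES cells, where 10.8% of all measured genes were, and 2 were at least 4-fold lower, where 10.2% of all genes were. For B cells, 2 were at least 4-fold higher than in ES cells, against 9.85% of all measured genes, and 3 were at least 4-fold lower, against 10.3%. Between the lymphocyte arrays, 1 was at least 4-fold above in T cells, against 2.49% of all measured genes, and 0 were at least 4-fold lower, against 1.85%. At 2-fold, 5 were higher and 4 lower for T cells against ES cells, where 22.7% and 24.7% of measured genes were, 4 were higher and 5 lower for B cells, against 21.1% and 24.6%, and 3 were higher and 0 lower in T cells than B cells, against 8.89% and 6.32%. The median log2 difference over the 10 genes was 0.42 for T cells against ES cells, -0.30 for B cells against ES cells and 0.55 for T cells against B cells, beside medians over all measured genes of -0.11, -0.07 and -0.05. Any pair of the 3 comparisons shares an array, so the comparisons are not independent of each other. The 10 genes were chosen with earlier results of these data known, so their counts are no independent comparison with all genes.

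**Figure D1:**
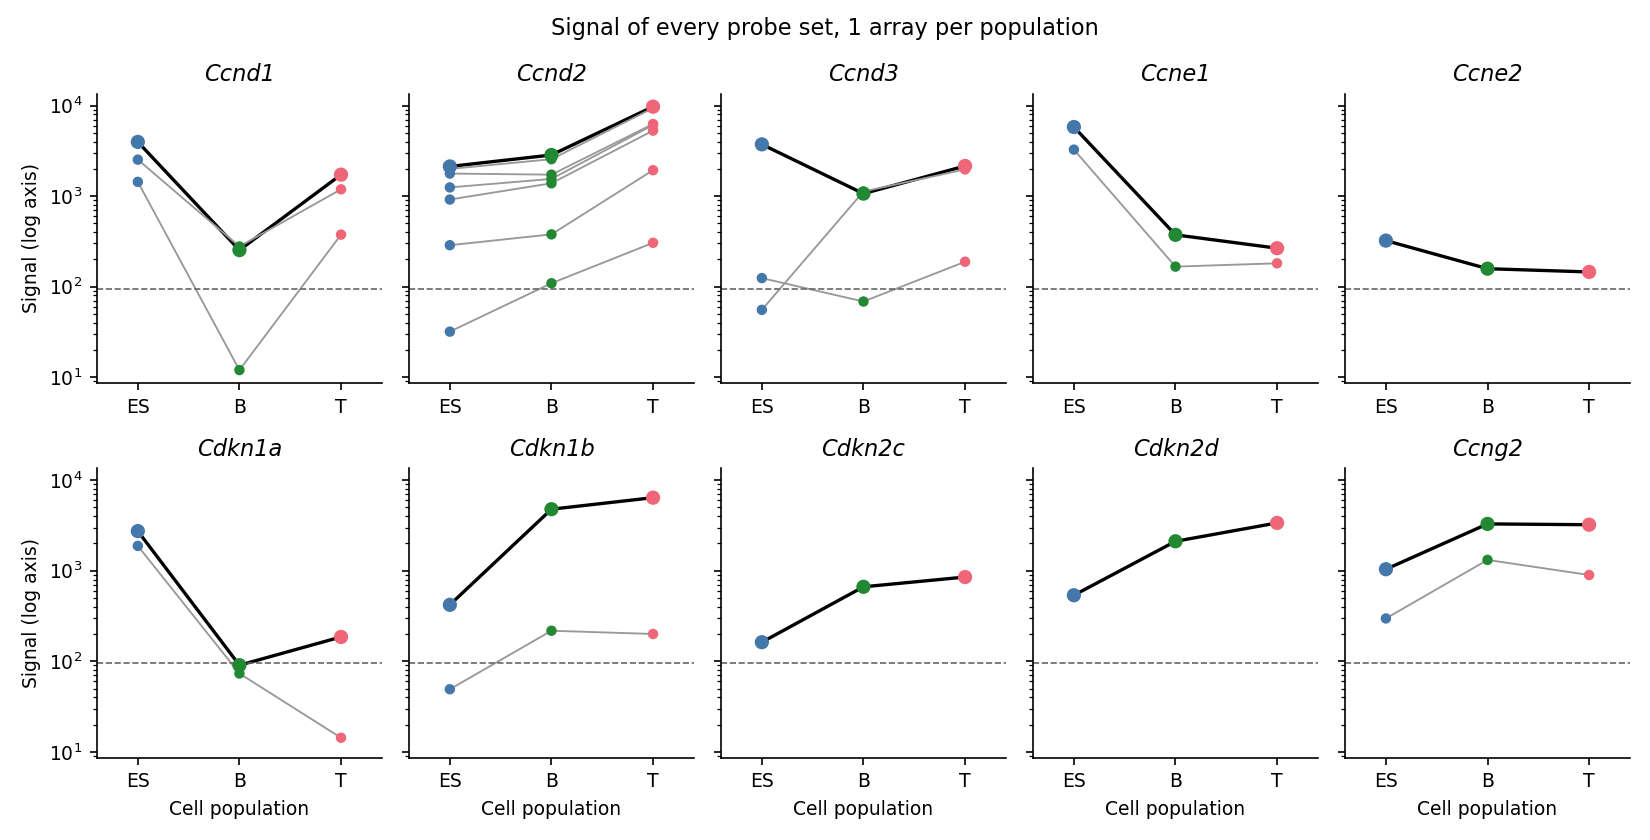
Signal of each probe set (log axis) in ES cells, B cells and T cells, 1 panel per gene; the black line is the brightest probe set, grey lines are the others, and the dashed line is the detection level of 95.0. Ccne1 and Cdkn1a are highest in ES cells, Cdkn1b, Cdkn2c and Cdkn2d are lowest there, and the lines of the Ccnd3 probe sets run in different directions from ES cells to lymphocytes, falling for the brightest and rising for 1438805_at.

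Among the D-type cyclins, Ccnd1 encodes cyclin D1, which is widely used by adherent cells and is little used by most lymphocytes. Its brightest probe set, 1417420_at, had a signal of 3971 in ES cells, against 254 in B cells and 1727 in T cells. ES cells were therefore highest, B cells lowest and T cells between them. B cells were 15.7-fold below ES cells and T cells 2.30-fold. The T cell difference, -1.20 on the log2 scale, was below the 90th percentile of the absolute disagreement of probe sets, 1.75. T cells were 6.81-fold above B cells, the widest gap of the 10 genes between the lymphocyte arrays, and 143 of 11194 measured genes had a difference at least as great in that direction, bounded differences being taken at their bound here and in the ranks of other genes. The other Ccnd1 probe sets had the same order of arrays, with signals of 2531, 278 and 1189.9 in ES, B and T cells for 1448698_at and of 1438, 12.0 and 376 for 1417419_at. Their T cell to B cell ratios were 4.28 and at least 3.96, so Ccnd1 was not called higher in T cells where every probe set had to reach 4-fold, the bound being taken at its value.

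Macrophage markers moved the same way as Ccnd1 between the lymphocyte arrays. Of the 13, 12 were brighter in the T cell array, 0 reached 4-fold, their median log2 difference was 1.28, and their summed signal was 2.41 times as high in T cells. Csf1r, the receptor of a macrophage growth factor, had signals of 8929.9 in B cells and 19275 in T cells, and Vcam1 4313 and 11112. In ES cells, where Ccnd1 was highest, Csf1r was at 209 and the fibroblast markers Acta2 and Col1a2 were at 16854 and 15844. The part of macrophages or of fibroblasts in the Ccnd1 signals was not tested. In arrays of cell mixtures, fewer cells of a type and less RNA per cell cannot be told apart.

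Ccnd2 encodes cyclin D2, a cyclin of lymphocytes among other cells. The brightest of its 7 probe sets, 1434745_at, had a signal of 2128 in ES cells, against 2848 in B cells and 9731 in T cells. T cells stood apart, while ES cells and B cells lay close together. T cells were 4.57-fold above ES cells and 3.42-fold above B cells, and B cells were 1.34-fold above ES cells, a log2 difference of 0.42 that lies within the disagreement of probe sets. By all 7 probe sets T cells exceeded ES cells, by 1.68 to 2.75 on the log2 scale, and B cells, by 1.48 to 2.36. For B cells against ES cells they spanned -0.04 to 0.60. Ccnd2 thus had the same direction in T cells by every probe set. Against ES cells 5 of the 7 reached 4-fold, 1430127_a_at was 3.52-fold higher, and 1416124_at gave only a minimum of 3.21-fold, as its ES cell signal of 31.9 was below the detection level. Scaling the arrays to a common 75th percentile ended the call against ES cells, at 1.81 on the log2 scale. The macrophage markers described above were also brighter in T cells than in B cells, as were 5 of 5 measured dendritic cell markers, with a median log2 difference of 1.38, and their part in the Ccnd2 signals was not tested.

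Ccnd3 encodes cyclin D3, the D-type cyclin best known from dividing lymphocyte precursors. Its brightest probe set, 1415907_at, had signals of 3732 in ES cells, against 1067 in B cells and 2153 in T cells. By these values ES cells were highest, T cells were 1.73-fold lower and B cells 3.50-fold lower. The T cell difference, -0.79 on the log2 scale, was within the robust SD of probe set disagreement, 0.80. A second probe set, 1438805_at, gave the opposite direction against ES cells, with 55.5 in ES cells, against 1125 in B cells and 1973 in T cells, so that T cells were at least 20.8-fold and B cells at least 11.8-fold above ES cells. The last, 1444323_at, was dim throughout, with 125, 68.6 and 189. The direction of Ccnd3 between ES cells and lymphocytes therefore depended on the probe set. On the log2 scale, the median over its probe sets was 0.60 for T cells and, as a bound, -0.39 for B cells. Both medians are the values of the dim 1444323_at. Between the lymphocyte arrays the 3 probe sets had 1 direction, with T cells higher by 0.81 to 1.01.

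**Figure D2:**
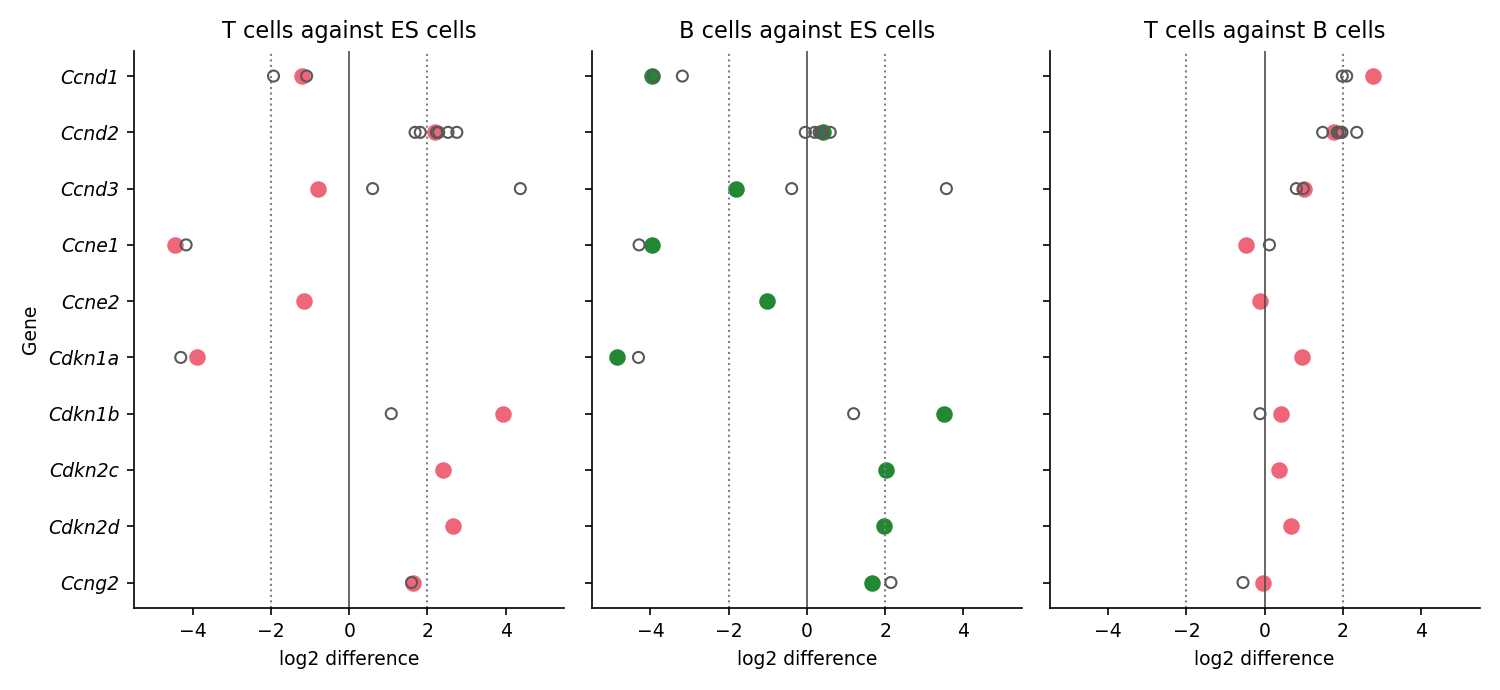
Log2 difference of each gene (x axis) in the 3 comparisons; filled circles are the brightest probe set and open circles the others, and dotted lines mark 4-fold at 2 and -2. The Ccnd3 probe sets lie on both sides of 0 against ES cells, from -0.79 to 4.38 in T cells, while the 7 Ccnd2 probe sets stay between 1.68 and 2.75 there.

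The RefSeq table of mouse promoters, on assembly GRCm38.p6, lists start sites 88.4 kb apart for Ccnd3. They are printed because the probe sets of this gene disagreed, and which start a probe set reports was not tested. The sequences run 5′ to 3′ on the plus strand from 250 bases before the start to 50 bases after it, at chr17:47504801-47505100 and chr17:47593217-47593516. Capitals mark each GC box (GGGCGG or its reverse complement CCGCCC) and each CCAAT box (CCAAT or ATTGG), motifs that were searched on both strands and do not overlap each other here.
Ccnd3 upstream start: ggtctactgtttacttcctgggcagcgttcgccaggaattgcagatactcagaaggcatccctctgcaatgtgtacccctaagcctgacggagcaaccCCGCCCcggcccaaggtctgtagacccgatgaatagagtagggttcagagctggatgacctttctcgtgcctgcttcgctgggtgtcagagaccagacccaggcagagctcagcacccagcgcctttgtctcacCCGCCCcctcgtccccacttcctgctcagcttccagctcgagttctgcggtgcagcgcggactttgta
Ccnd3 downstream start: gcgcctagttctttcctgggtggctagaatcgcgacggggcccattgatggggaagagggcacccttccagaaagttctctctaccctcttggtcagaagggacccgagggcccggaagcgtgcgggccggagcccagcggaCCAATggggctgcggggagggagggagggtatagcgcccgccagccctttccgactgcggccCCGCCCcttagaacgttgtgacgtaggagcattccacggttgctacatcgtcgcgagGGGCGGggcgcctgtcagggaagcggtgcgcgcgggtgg

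Both windows held 2 GC boxes, and the downstream one also held 1 CCAAT box. The upstream window had 59.3% G and C and 15 CpG dinucleotides, against 67% and 28 in the downstream one. Of the 32851 promoters in the table, 35.7% held a GC box and 37.4% a CCAAT box. The forkhead motif GTAAACA, or its reverse complement TGTTTAC, occurred once in the upstream Ccnd3 window, in 0 of the other 9 windows of the genes studied and in 3.65% of all promoters. These matches describe letters and not binding.

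The E-type cyclins differed in how far they set ES cells apart. Ccne1, encoding cyclin E1, the partner of CDK2 at the entry into S phase, had a signal of 5804 in ES cells, against 374 in B cells and 266 in T cells by 1441910_x_at. ES cells were far above both lymphocyte arrays, which were close together. T cells were 21.8-fold and B cells 15.5-fold below ES cells, and 1.3% of measured genes were as low or lower in the first comparison and 2.04% in the second. The suffix x marks a probe set some of whose probes may match other transcripts. The second probe set, 1416492_at, lacks that mark and gave 3264, 167 and 181, or 18.0-fold and 19.6-fold. Between T cells and B cells the probe sets gave -0.49 and 0.12 on the log2 scale, with no common direction.

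Ccne2, encoding cyclin E2, has 1 probe set, with 323 in ES cells, against 158 in B cells and 146 in T cells. All 3 signals were within 4-fold of each other and not far above the detection level. T cells were 2.22-fold and B cells 2.04-fold below ES cells. If detection was set at the 65th percentile of all values, the log2 differences of -1.15 and -1.03 became bounds of -0.40 in both comparisons, since both lymphocyte signals then lay below it. Both E-type cyclins were thus lower in both lymphocyte arrays, Ccne1 beyond 4-fold and Ccne2 not. The Ccne2 differences were below the 90th percentile of the absolute disagreement of probe sets, 1.75 for T cells and 1.77 for B cells against ES cells.

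Among genes above the detection level in all 3 arrays, the pattern of Ccne1 had the widest log2 range of the genes studied, 4.45. The genes nearest to that pattern, of 8598 compared by the Euclidean distance of log2 signals centred on their mean over the 3 arrays, were Pmm1 at 0.05, Bub1 at 0.10 and Coprs at 0.16. Bub1, which encodes a kinase of the spindle checkpoint, had signals of 4677, 305 and 235 in ES, B and T cells. A likeness over 3 arrays is a description of these arrays.

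The CIP/KIP inhibitors studied, Cdkn1a and Cdkn1b, went in opposite directions. Cdkn1a, encoding p21, a target gene of p53, had a signal of 2738 in ES cells, against 90.5 in B cells and 186 in T cells by 1424638_at. The ES cell array was high and both lymphocyte arrays were near the detection level. That array also held all 16 fibroblast markers above the detection level, and the part of fibroblasts in its Cdkn1a signal was not tested. Against ES cells, Cdkn1a was at least 28.8-fold lower for B cells and 14.7-fold lower for T cells. Its second probe set, 1421679_a_at, gave 1881, 73.3 and 14.3, and was at least 19.8-fold lower in both. Raising the detection level to the 65th percentile of all values moved the bound for B cells from -4.85 to -3.49 on the log2 scale.

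Cdkn1b, encoding p27, an inhibitor known to be abundant in resting lymphocytes, had a signal of 420.5 in ES cells, against 4781 in B cells and 6410.4 in T cells by 1434045_at. The lymphocyte arrays were close together and far above ES cells. Cdkn1b was 15.2-fold higher in T cells and 11.4-fold higher in B cells, and 373 of 12325 and 485 of 12463 measured genes had a difference at least as great. The second probe set, 1419497_at, was dimmer, with 49.1, 217 and 200.2, and gave the same direction, with T cells at least 2.11-fold and B cells at least 2.29-fold above ES cells, minima set by an ES cell signal below the detection level. The T cell to B cell difference of 0.42 was within the disagreement of probe sets, and the second probe set put it at -0.12.

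The INK4 inhibitors studied, Cdkn2c and Cdkn2d, each had 1 probe set. Cdkn2c, encoding p18, had a signal of 162 in ES cells, against 665 in B cells and 851 in T cells. Cdkn2d, encoding p19, had 536, 2114 and 3373. Both were lowest in ES cells and highest in T cells. The further INK4 genes Cdkn2a and Cdkn2b, described below, were highest in ES cells. For Cdkn2c, T cells were 5.24-fold and B cells 4.09-fold above ES cells, and for Cdkn2d 6.29-fold and 3.94-fold, so that in B cells they lay just above and just below the 4-fold threshold. With detection at the 65th percentile, the ES cell signal of Cdkn2c lay below the detection level, its log2 differences became bounds, 1.80 for T cells and 1.44 for B cells, and both calls ended. The B cell call also ended under quantile normalization, at 1.69, under scaling to a common 75th percentile, at 1.68, and with 16 added in place of the floor, at 1.93. T cells exceeded B cells by 0.36 for Cdkn2c, within the disagreement of probe sets, and by 0.67 for Cdkn2d. The latter was below the 90th percentile of the absolute disagreement of probe sets, 0.87.

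Ccng2 encodes cyclin G2, an atypical cyclin linked to cell cycle exit and known as a target of FOXO factors, as is Cdkn1b. Its brightest probe set, 1416488_at, had a signal of 1039 in ES cells, against 3289 for B cells and 3222 for T cells. Both lymphocyte arrays were above ES cells and close together by this probe set, with a log2 difference of -0.03 for T cells against B cells. Ccng2 was 3.17-fold higher in B cells and 3.10-fold higher in T cells, and by its second probe set, 1448364_at, with signals of 297, 1317 and 897, it was 4.43-fold and 3.02-fold higher. The second probe set put T cells below B cells by a log2 difference of -0.55. This size exceeded the robust SD of 0.45 but not the 90th percentile of the absolute disagreement of probe sets, 0.87. Ccng2 missed the 4-fold threshold in both comparisons against ES cells by its brightest probe set. Its log2 differences there, 1.63 for T cells and 1.66 for B cells, were below the 90th percentiles of 1.75 and 1.77.

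**Figure D3:**
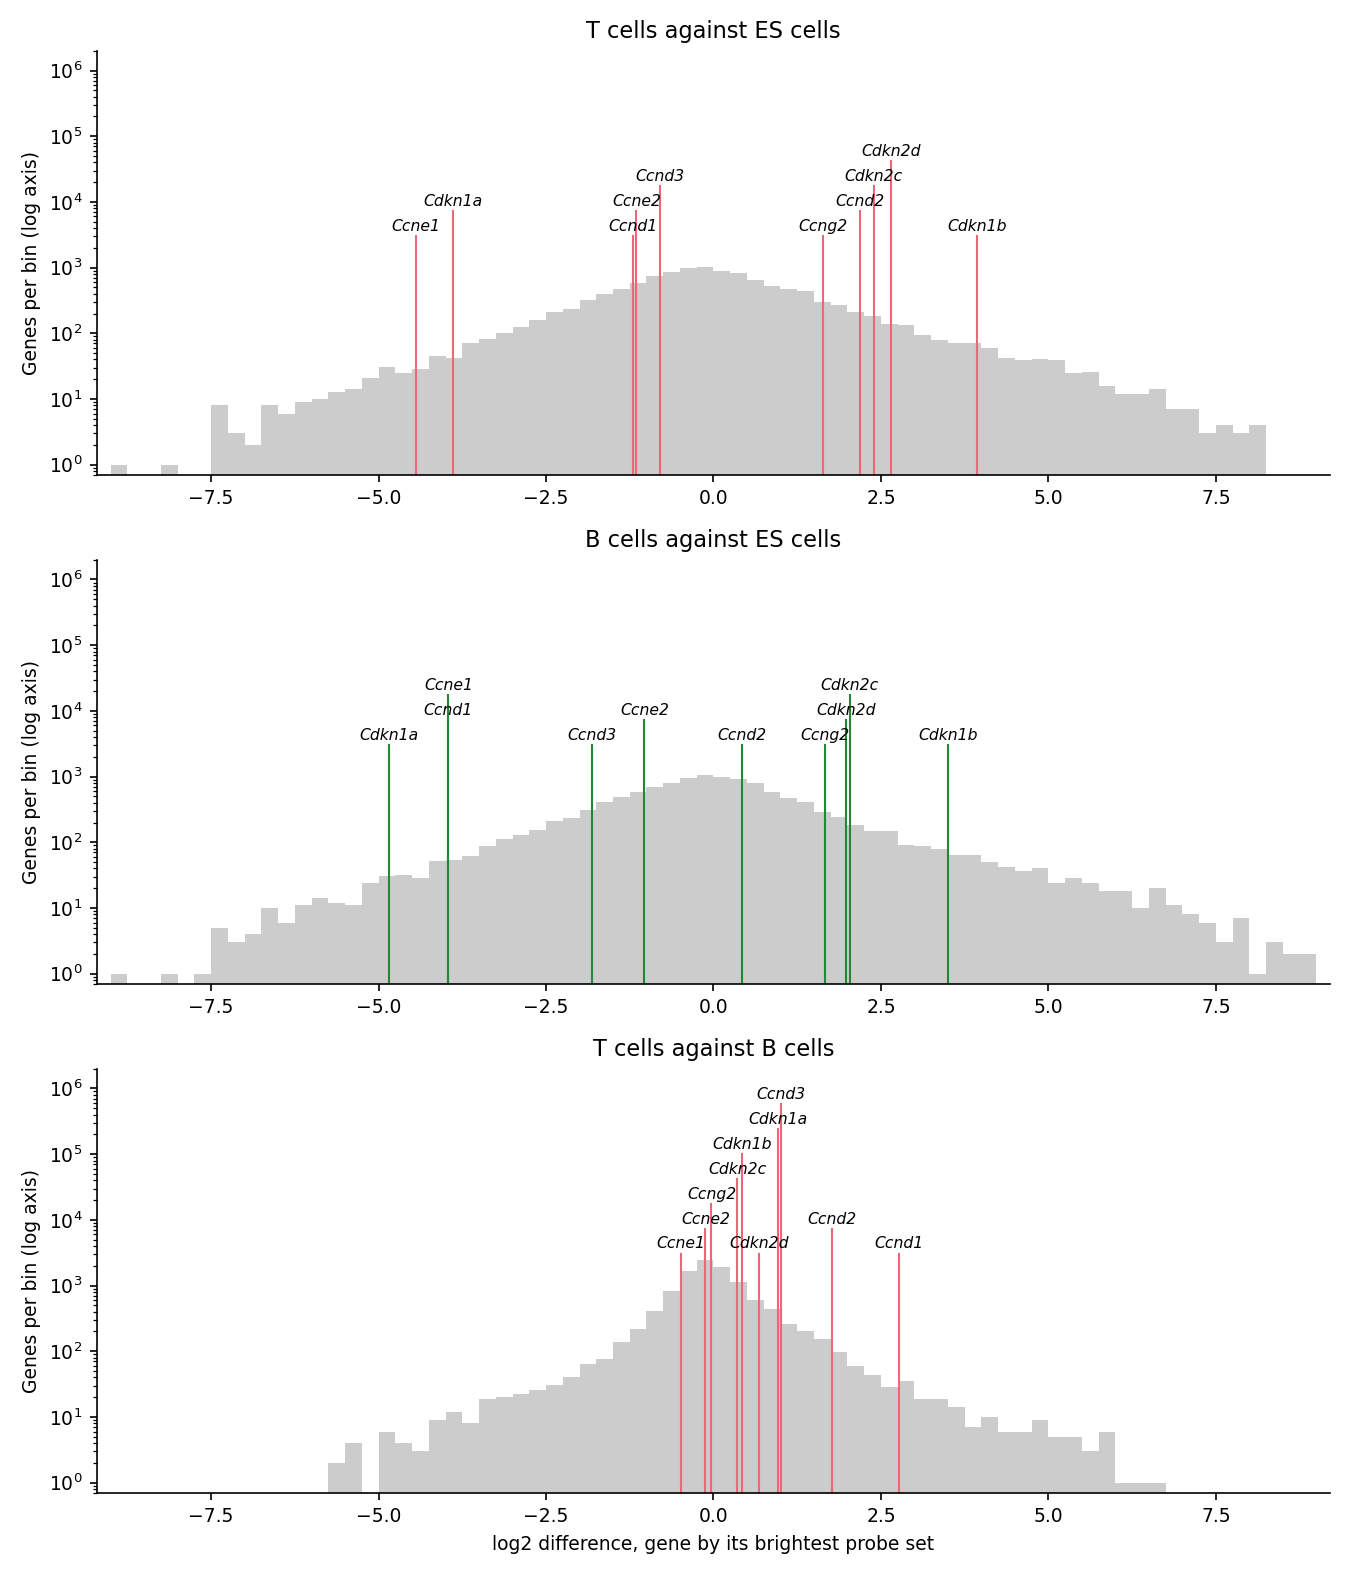
Histograms (grey, genes per bin on a log axis) of the log2 difference of all measured genes, by their brightest probe set, with coloured lines at the 10 genes studied. Cdkn1b lies at 3.93 and Ccne1 at -4.45 for T cells against ES cells, and the bottom panel is narrower, with Ccnd1 at 2.77 and Ccnd2 at 1.77 for T cells against B cells.

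Ccne1 and Cdkn1b had opposite patterns over the 3 arrays, and their promoters are printed for that reason, from the same RefSeq table, 5′ to 3′ along the gene and with the same use of capitals. Ccne1 lies on the minus strand, with its window at chr7:38107441-38107740, and Cdkn1b on the plus strand at chr6:134920151-134920450.
Ccne1: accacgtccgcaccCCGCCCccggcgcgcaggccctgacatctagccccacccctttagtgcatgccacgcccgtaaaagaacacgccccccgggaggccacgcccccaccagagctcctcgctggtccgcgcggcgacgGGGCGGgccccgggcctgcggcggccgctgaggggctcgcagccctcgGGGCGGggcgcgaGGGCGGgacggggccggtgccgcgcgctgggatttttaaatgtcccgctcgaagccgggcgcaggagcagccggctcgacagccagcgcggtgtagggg
Cdkn1b: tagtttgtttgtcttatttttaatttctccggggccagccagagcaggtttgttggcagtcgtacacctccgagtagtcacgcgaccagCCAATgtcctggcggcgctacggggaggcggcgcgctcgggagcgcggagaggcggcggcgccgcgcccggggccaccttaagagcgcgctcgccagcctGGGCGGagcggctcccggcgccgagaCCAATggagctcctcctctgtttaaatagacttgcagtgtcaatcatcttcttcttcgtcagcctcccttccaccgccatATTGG

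The Ccne1 window held 4 GC boxes and 0 CCAAT boxes, with 76% G and C and 41 CpG dinucleotides. The Cdkn1b window held 1 GC box and 3 CCAAT boxes, with 62% and 30. The table had 10 windows for 7 of the genes, Ccnd3, Cdkn1a and Cdkn2c having 2 each. Of the 10 windows, 8 held a GC box and 4 a CCAAT box, against 35.7% and 37.4% of all promoters. The E2F forms TTTCCCGC and TTTGGCGC, with their reverse complements, occurred in 0 of the 10 windows and in 1.07% and 0.514% of all promoters, which says only that these letters are not in these windows. Ccnd1, Ccnd2 and Ccne2 had no entry.

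Partners of these proteins were described by lists named for their role. List counts against ES cells stand beside shares of all measured genes, at 4-fold, of 10.8% higher and 10.2% lower for T cells. For B cells these shares were 9.85% and 10.3%. Cdk4, the kinase bound by D-type cyclins, had a signal of 7857 in ES cells, against 1531 in B cells and 1045 in T cells, and T cells were 7.52-fold and B cells 5.13-fold below ES cells. Cdk6, which takes the same cyclins, went the other way, with 639, 1404 and 1222, or 1.91-fold and 2.20-fold higher. Cdk2, the partner of E-type cyclins, had 1219, 1631 and 1131. Of the 8 kinases and activators of the G1 phase, 1 was at least 4-fold lower in each lymphocyte array than in ES cells and 0 were higher, with median log2 differences of -1.11 for T cells and -1.18 for B cells. Cdc25a, a phosphatase that activates CDK2, stood at -1.52 and -1.38, and Mnat1, a subunit of the CDK-activating kinase, at -1.51 in both.

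The pocket proteins, the substrates of these kinases, were higher in lymphocytes. Rbl2, encoding p130, the pocket protein of resting cells, had a signal just above the detection level in ES cells, with 1265 in B cells and 1670.4 in T cells. It was 16.7-fold higher in T cells and 12.7-fold higher in B cells. Rb1 had 333, 2069 and 1977, or 5.93-fold and 6.21-fold higher, and Rbl1 471, 1357 and 2000.4, or 4.25-fold and 2.88-fold. All 3 were called higher for T cells and 2 of 3 for B cells, beside 10.8% and 9.85% of all measured genes. However, log2 differences of the Rbl1 probe sets ran from 0.96 to 2.09 in T cells and from 0.02 to 1.53 in B cells.

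Of 10 E2F and DP factors, 3 were at least 4-fold lower and 1 at least 4-fold higher in each lymphocyte array against ES cells. The medians of this list were -1.21 for T cells and -1.08 for B cells. Beside these counts, 10.2% of all measured genes were lower and 10.8% higher for T cells, and 10.3% and 9.85% for B cells. E2f8 and E2f7, atypical repressors of the family, were lower, at -2.83 and, as a bound, -2.75 in T cells and at -3.09 and -2.25 in B cells. E2f2 was the exception, with signals of 101, 1269 and 581, 12.6-fold higher in B cells and 5.75-fold higher in T cells. Of the 4 other CDK inhibitors, 3 were at least 4-fold lower in both lymphocyte arrays than in ES cells. They were Cdkn2b, with 663, 42.7 and 156, Cdkn1c, with 600, 62.3 and 58.4, and Cdkn2a, with 395, 4.5 and 27.8 in ES, B and T cells. In ES cells they stood beside the 16 fibroblast markers, and the part of fibroblasts in their signals, or in that of Cdkn1a, was not tested.

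**Figure D4:**
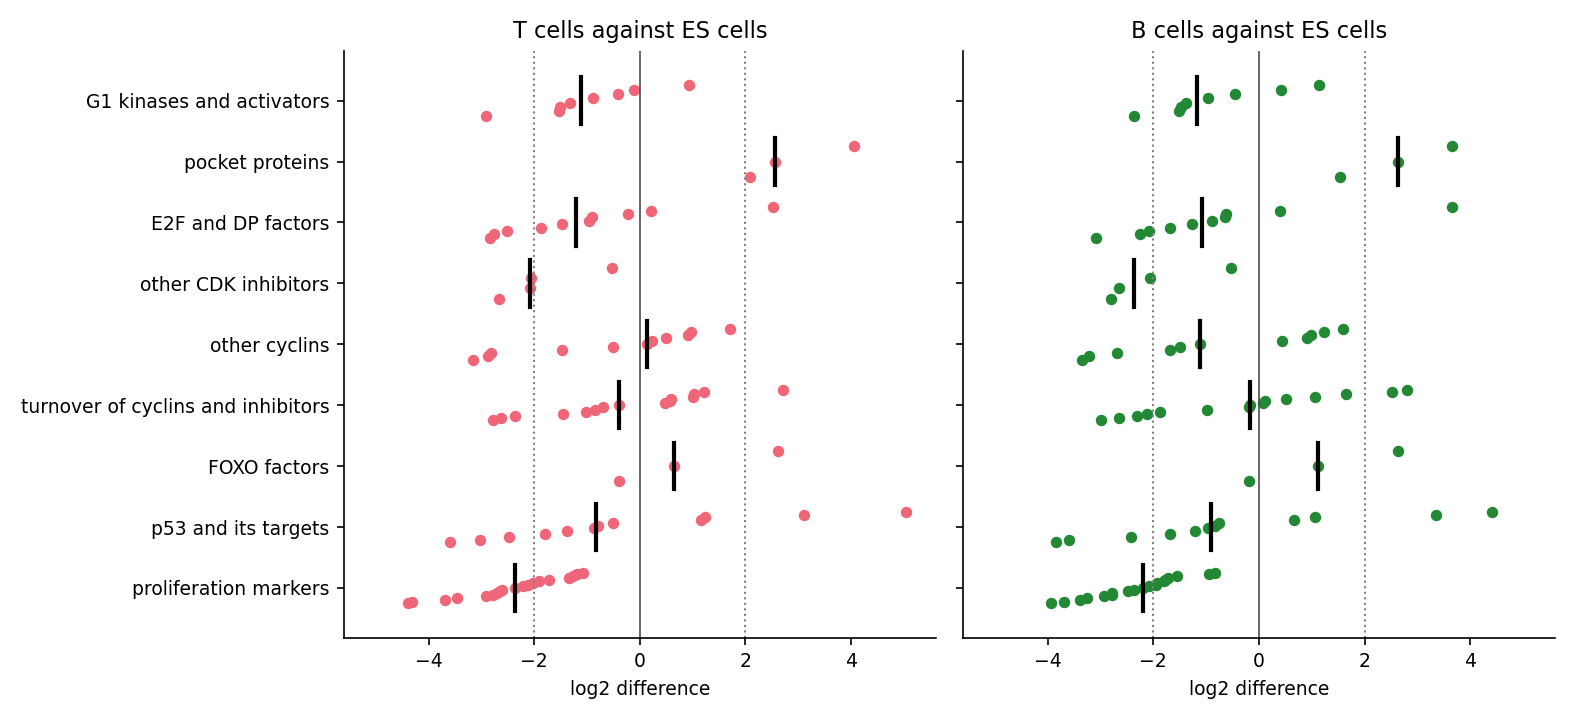
Log2 difference (x axis) of each measured gene (point) of 9 lists of cell cycle genes for T cells and B cells against ES cells; black bars are list medians and dotted lines mark 4-fold. All points of the proliferation markers lie below 0, with medians of -2.36 and -2.19, and the 3 pocket proteins lie above it.

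Of 11 measured other cyclins, 3 were at least 4-fold lower in each lymphocyte array and 0 higher, with medians of 0.13 for T cells and -1.13 for B cells. These were cyclins of S phase and mitosis, Ccnb2 at -3.17 and -3.22, Ccna2 at -2.87 and -2.69 and Ccnf at -2.82 and -3.34 in T cells and B cells. Ccng1, the p53-responsive relative of Ccng2, had 7170 in ES cells, against 2538 for B cells and 5032 for T cells. That is the opposite order to Ccng2 between ES cells and lymphocytes. For T cells, the log2 difference of -0.51 was within the robust SD of probe set disagreement, 0.80, and the probe sets ranged from -2.02 to -0.35. Of 19 proliferation markers, T cells were at least 4-fold below ES cells for 13 and B cells for 11, and 0 were higher. The share of all measured genes that low, for this list and the other cyclins, was 10.2% in T cells and 10.3% in B cells. Cdk1 had 7293, 566 and 350.0, Aurka 4389, 421 and 342, and Mki67 4003, 2236 and 1744 in ES, B and T cells. Between T cells and B cells, 0 of these 19 markers reached 4-fold in either direction, where 2.49% and 1.85% of all measured genes did, and their median was -0.16, beside -0.05 over all measured genes.

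Genes that control the turnover of cyclins and inhibitors were mixed. Of 15 measured, 1 was at least 4-fold higher and 3 were lower for T cells, and 2 higher and 4 lower in B cells. Of all measured genes, 10.8% were higher and 10.2% lower for T cells, and 9.85% and 10.3% for B cells. The medians of the list were -0.40 and -0.17. Skp2, the F-box protein that marks p27 for degradation, had 2236 in ES cells, against 282 in B cells and 432 in T cells by its brightest probe set, while its 6 probe sets ranged from -2.57 to 0.02 in T cells and from -3.51 to -0.10 in B cells. Rnf123, a subunit of a ubiquitin ligase for p27, had 24.8, 659 and 619, at least 6.94-fold and 6.51-fold higher in B and T cells. Cul4b, a ubiquitin ligase scaffold, was lower, at -2.78 in T cells and -2.30 in B cells.

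Foxo1, a FOXO factor active in resting lymphocytes, was 6.16-fold above ES cells in T cells and 6.17-fold in B cells, with signals of 595 in ES cells, against 3672 in B cells and 3665 in T cells. Foxo3 stood at 0.65 and 1.11 and Foxo4 at -0.39 and -0.18, so 1 of 3 measured FOXO factors was called in each comparison. Of 12 measured genes of the p53 list, 2 were at least 4-fold higher and 3 at least 4-fold lower in each lymphocyte array. Beside them, 10.8% of all measured genes were higher and 10.2% lower for T cells, and 9.85% and 10.3% for B cells. The list medians were -0.83 for T cells and -0.91 for B cells. Phlda3 and Perp, p53 targets like Cdkn1a, were lower. In ES, B and T cells, Phlda3 had 1897, 132 and 234 and Perp 1151, 4.1 and 30.6. The part of fibroblasts in their ES cell signals was not tested. Sesn1, a target of p53 and of FOXO factors, was higher, with 156, 3328 and 5152, although its probe sets ranged from 2.53 to 5.04 in T cells.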

How the data were processed

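Total RNA was labelled with the GeneChip 3' IVT Express Kit and hybridised to 1 array per population. The authors deposited linear intensity values per probe set, made with Affymetrix Expression Console per the submitters' processing notes, and its version, summarization and background step are not stated in the sources used here. Trimmed by 2% at each end, the columns had means of 497.3, 497.8 and 497.7 for ES, B and T cells, so a general change in mRNA per cell cannot be seen. Probe sets were named by GEO's annotation of the array, dated 2016. All 24 probe sets of the genes studied kept their symbol in the RefSeq gene table of GRCm38.p6, and no coordinates were taken from that table. Of 45037 probe sets, 34945 had 1 symbol and were used for counts over all genes, each gene by its probe set of highest mean signal. The members and lists were chosen with earlier results of these data known. Of 186 list entries 13 had no probe set of 1 symbol and are not analysed here. Partner genes were named by rule: the 3 genes per list of widest difference, every called gene of lists of 4 or fewer, and Cdk4, Cdk6, Cdk2, Rb1, Rbl2, Foxo1, Ccng1 and Mki67. The proteins were not compared. Alternatives were other detection levels (65th and 35th percentile), quantile normalization, a common 75th percentile, 16 added with no floor, the median of probe sets, all probe sets required, and 2-fold. Python 3.11.15, numpy 2.4.6 and pandas 2.3.3 were used.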

Additional observations from a re-analysis of the deposited data

How the results depend on the processing

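No sign of a called gene changed under the alternatives tried, and under quantile normalization and scaling to the 75th percentile 0 of the genes' signs changed. With the median of probe sets Ccnd3, which was not called, turned from -0.79 to 0.60 for T cells against ES cells. The latter is the value of its dim probe set, 1444323_at. Of 48 alternative counts 11 differed by over 1.5 times. With all probe sets required to differ, and bounds taken at their value, 2 genes in place of 4 were higher in T cells than in ES cells (Cdkn2c and Cdkn2d), 1 in place of 2 in B cells than in ES cells (Cdkn2c), and 0 in place of 1 in T cells than in B cells. With detection at the 65th percentile, quantile normalization, scaling to the 75th percentile or 16 added, 1 in place of 2 was higher in B cells than in ES cells, namely Cdkn1b, and at the 65th percentile Cdkn2c was also lost in T cells, where 3 in place of 4 were higher. There the ES cell signal of Cdkn2c fell below the detection level. At 2-fold, the counts against ES cells were 4 lower in T cells, 4 higher in B cells and 5 lower in B cells, and between lymphocytes 3 were higher in T cells (Ccnd1, Ccnd2 and Ccnd3). Scaling to the 75th percentile moved the median of all genes to -0.41 for T cells and -0.37 for B cells against ES cells, lost Ccnd2 among the higher genes in T cells and added Ccnd3 among the lower genes in B cells. Signal over background limits Cdkn1a in lymphocytes, Ccne2 in all arrays and the dim probe sets of Ccnd2, Ccnd3 and Cdkn1b. The cause of the other changes was not tested. No paired analysis was possible because each population has 1 array.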
